A study of Mus musculus with 31 samples.

Results

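A set of 9 genes of epithelial cell contact were followed through factor-driven reprogramming of mouse fibroblasts. They were the tight junction claudins Cldn3, Cldn4, Cldn6 and Cldn7, the tight junction proteins Ocln and Cxadr, the desmosome genes Dsp and Perp, and the protease inhibitor gene Spint2. They were taken as a group of 9, chosen with earlier results of these data known. They were found by gene symbol among 19938 measured genes, and each had exactly 1 array row. Mouse embryonic fibroblasts (MEFs), mesenchymal cells of the embryo grown in culture medium with serum, had been infected at day 0 with retroviruses. The viruses carried c-Myc, Oct4, Sox2 and Klf4 (the 4F arm), the same factors without c-Myc (3F), or the fluorescent protein GFP. There were 31 arrays. The 4F arm had 2 arrays on each of days 1, 2, 3, 4, 5, 6 and 8 and 1 array on days 10 and 12, and the 3F arm had 1 array on days 3, 5, 8 and 12. The GFP arm had 2 arrays on days 1, 3, 5 and 8 and 1 on day 12, and 2 arrays came from uninfected MEFs of day 0. All infected groups carried retrovirus, and the uninfected cells carried none. The share of cells that took up each virus, the mouse strain and the embryonic age are not given in the sources used here, and each array averages a whole culture. In such bulk RNA, a change in the share of cells that express a gene and a change in the RNA per cell cannot be told apart.

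Tight junctions are the strands near the top of an epithelial cell that seal the space between neighbours, and claudins and occludin are their membrane-spanning proteins. Desmosomes are button-like contacts that anchor the keratin filaments of neighbouring cells to each other. Fibroblasts make few of these structures, and when they are reprogrammed to pluripotent cells they pass through a mesenchymal-to-epithelial transition in which junction genes come on. Repressors of the Snail and Zeb families, which hold many epithelial genes low in mesenchymal cells, are known to bind the E-box letters CAGGTG.

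The promoters of 7 of the 9 genes were available from RefSeq (build GRCm38.p6) as windows of 300 bases, from 250 bases before a transcription start to 50 after it. There were 9 windows, since Cldn7 had 2 separate windows and Ocln 2 that overlap, and none for Cxadr and Perp. Both orientations of the E-box, CAGGTG and CACCTG, were searched, and 8 of the 9 windows and all 7 of these genes held at least 1 match, against 20.2% of all 32851 mouse promoter windows. Among windows with at least 60% G and C the share was 20.5% of 9690, and all 7 junction gene windows in that range had a match. The windows of Spint2, which had the most matches, of the neighbouring claudins Cldn4 and Cldn3 and of Dsp are shown, with the matches in capitals. Spint2 (chr7:29281928-29282227, minus strand) had 3 matches, as had 0.365% of all windows, counting those with more. Cldn4 (chr5:134946885-134947184, minus strand) had 2, as had 1 window each of Cldn6, Cldn7 and Ocln, and at least 2 were found in 2.88% of all windows. Cldn3 (chr5:134985964-134986263, plus strand) and Dsp (chr13:38151044-38151343, plus strand) had 1 each.
Spint2: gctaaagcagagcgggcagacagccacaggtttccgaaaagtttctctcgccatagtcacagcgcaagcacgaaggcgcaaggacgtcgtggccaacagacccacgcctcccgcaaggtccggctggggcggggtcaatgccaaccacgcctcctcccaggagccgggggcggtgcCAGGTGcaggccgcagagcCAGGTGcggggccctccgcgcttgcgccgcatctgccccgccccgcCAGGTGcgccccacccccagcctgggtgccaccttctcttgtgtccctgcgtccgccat
Cldn4: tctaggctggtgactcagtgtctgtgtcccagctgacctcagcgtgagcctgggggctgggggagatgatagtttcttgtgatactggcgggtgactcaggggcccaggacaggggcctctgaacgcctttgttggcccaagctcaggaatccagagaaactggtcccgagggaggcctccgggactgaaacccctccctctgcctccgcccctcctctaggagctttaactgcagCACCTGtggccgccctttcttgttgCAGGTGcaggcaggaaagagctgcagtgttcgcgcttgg
Cldn3: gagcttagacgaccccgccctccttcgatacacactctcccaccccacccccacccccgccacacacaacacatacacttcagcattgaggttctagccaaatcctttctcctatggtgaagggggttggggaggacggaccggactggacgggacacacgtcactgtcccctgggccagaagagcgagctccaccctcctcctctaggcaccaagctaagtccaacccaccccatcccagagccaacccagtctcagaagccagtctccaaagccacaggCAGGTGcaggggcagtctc
Dsp: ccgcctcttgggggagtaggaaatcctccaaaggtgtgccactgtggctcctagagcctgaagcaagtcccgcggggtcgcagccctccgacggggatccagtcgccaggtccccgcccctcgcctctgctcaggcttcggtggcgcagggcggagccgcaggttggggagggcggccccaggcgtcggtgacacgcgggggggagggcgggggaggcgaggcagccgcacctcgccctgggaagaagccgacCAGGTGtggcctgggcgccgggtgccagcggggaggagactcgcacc
The other motifs searched, on both strands, were the Myc-type E-box CACGTG (0 of 9 windows, against 7.15% of all), the Klf-type box GGGNGTGG (3 of 9, against 17.6%), the Oct octamer ATGCAAAT (0 of 9, against 1.74%) and the grainyhead-type box AACNGGTT (0 of 9, against 2.09%). Such a match describes letters in a window, and binding was not measured here.

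The arrays were read as log2 signal, on which a difference of 1 is a doubling, and probe signals of different genes are not compared with each other. Values on all arrays lay between 4.27 and 14.3, array medians between 6.04 and 6.17, and replicate arrays correlated across genes at r from 0.974 to 0.993. The factor transcripts Pou5f1 (Oct4) and Sox2 checked the labels. Pou5f1 had a lowest, median and highest signal of 6.05, 7.01 and 9.93 on 4F arrays and 6.30, 7.10 and 10.2 on 3F arrays, against 5.22, 5.47 and 5.60 on GFP arrays. Sox2 lay between 5.74 and 9.48 on 4F arrays and up to 9.2 on 3F arrays, against 5.31 to 5.57 on GFP arrays. On the uninfected arrays Pou5f1 had 5.23 and 5.66, below all 4F arrays, whereas Sox2 had 5.66 and 5.98, within the range of the early 4F arrays. Klf4 (medians 7.33 in 4F, 7.86 in 3F and 7.96 in GFP) and Myc (7.14, 8.65 and 7.76) were not higher in 4F, so their rows give no check of the labels, including whether the 3F cells lacked the Myc virus. The 12 fibroblast markers together had a mean signal of 10.3 and 10.4 on the uninfected arrays. This lay within the 4F range of 9.40 to 10.5 and below all GFP arrays (10.6 to 12.3), so it gives no check of the uninfected label. Lum, 1 of these 12 markers, averaged 5.77 on the uninfected arrays, below the array medians. The input for labelling was 120 ng of RNA for the 12 replicate 1 arrays and 300 ng for the other 19.

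**Figure D1:**
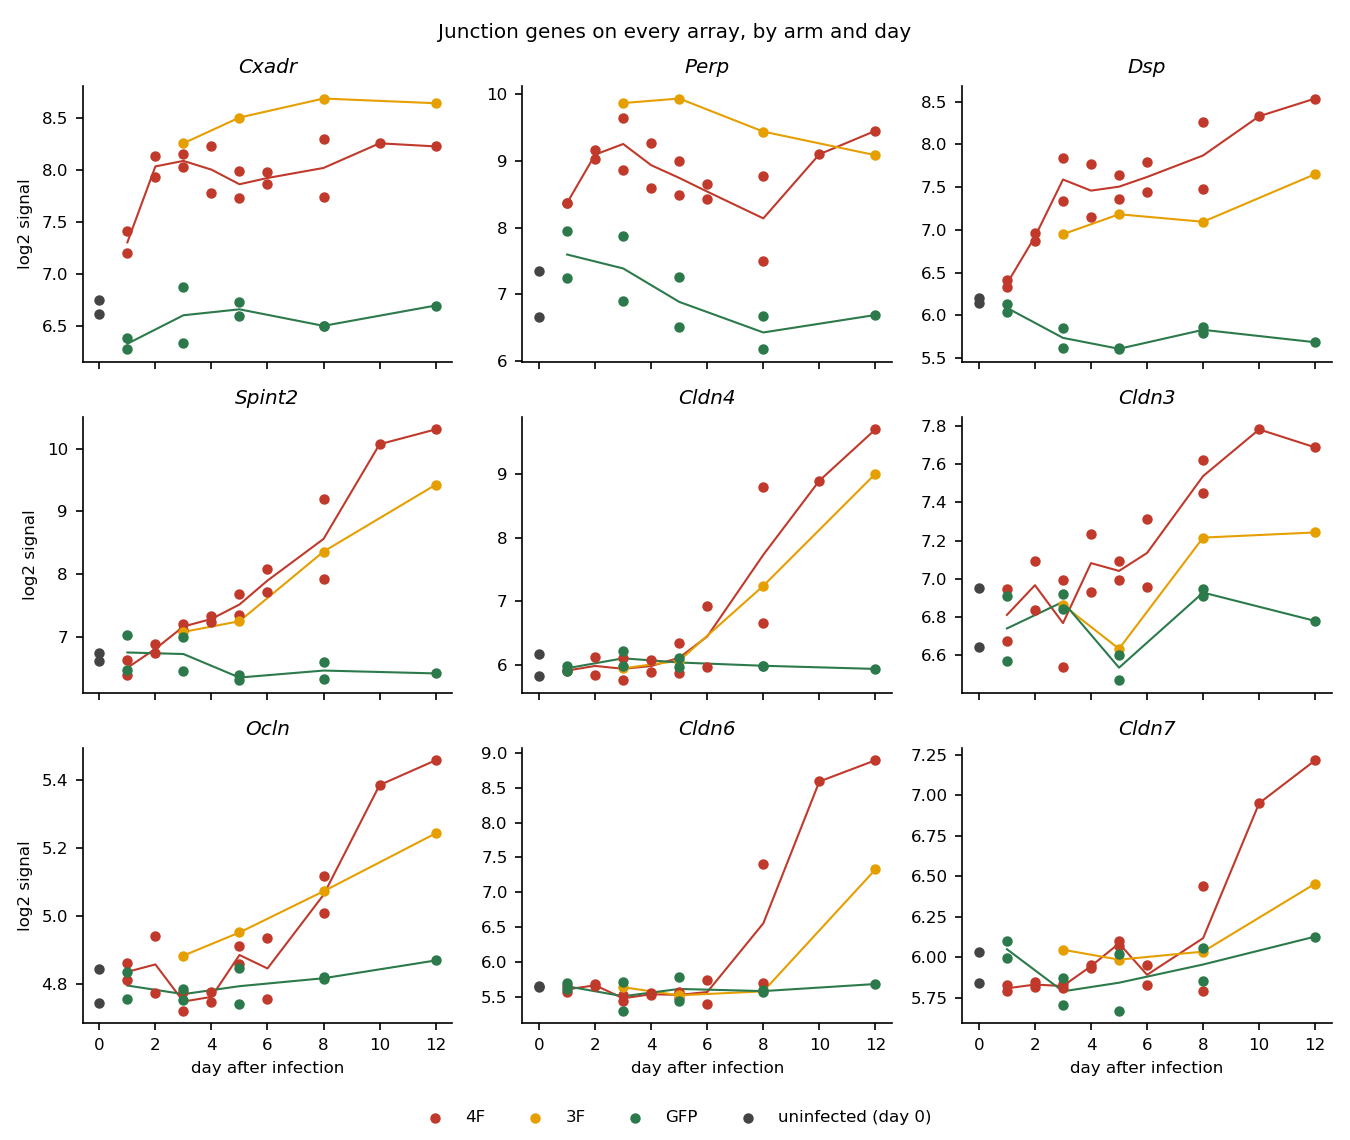
Log2 signal of each of the 9 genes (vertical axis, a range of its own per panel) on every array against day after infection (horizontal axis). Points are single arrays, red for 4F, orange for 3F, green for GFP and grey for uninfected cells, and lines join the arm means. Cxadr, Perp and Dsp are apart from GFP on day 3. Cldn3 has all 4F arrays above all GFP arrays from day 5 on, and Cldn4 and Ocln from day 8 on.

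Cxadr, Perp and Dsp were the early genes. On day 1 Cxadr alone of the 9 was called higher in 4F than in GFP cells, and on day 3 all of these 3 genes were. The day 3 rise over uninfected cells was 1.41 for Cxadr and 1.41 for Dsp, against 1.34 and 1.69 on day 8. For Perp the mean was higher on day 3 than on day 8, with rises of 2.26 and 1.14. Cxadr encodes the coxsackievirus and adenovirus receptor, an immunoglobulin-type adhesion protein of tight junctions. Its signals were 6.75 and 6.61 in uninfected cells and, in 4F cells, 7.20 and 7.41 on day 1, 8.14 and 7.93 on day 2 and 8.02 and 8.15 on day 3. On the later 4F days it had 7.77 and 8.23 (day 4), 7.73 and 7.99 (day 5), 7.86 and 7.98 (day 6), 7.74 and 8.29 (day 8), 8.26 (day 10) and 8.23 (day 12). In GFP cells it had 6.38 and 6.27 on day 1, 6.87 and 6.33 on day 3, 6.72 and 6.59 on day 5, 6.50 on both arrays of day 8 and 6.69 on day 12. Every 4F array lay above every GFP and uninfected array, and from day 2 on the 4F arrays stayed between 7.73 and 8.29. The 4F minus GFP difference was 0.98 ± 0.19 on day 1 (SE, 2 arrays per arm; limma adjusted p = 0.022), or 1.97-fold, in a comparison in which 1.81% of all genes passed an adjusted p of 0.05. It was 1.49 ± 0.19 on day 3 (adjusted p = 1.7e-04), where 11.9% of all genes passed, and 1.20 on day 5 (adjusted p = 4.1e-04) and 1.52 on day 8 (adjusted p = 3.2e-05). The day 1 call was lost without any single one of its 4 arrays (adjusted p from 0.085 to 0.17, differences from 0.87 to 1.08), and the number of all genes called on that day then lay between 23 and 308, against 361.

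Perp encodes a membrane protein of desmosomes and is a known target of p53 and p63. Its signals were 6.65 and 7.35 in uninfected cells and, in 4F cells, 8.37 on both arrays of day 1, 9.03 and 9.16 on day 2, 8.86 and 9.65 on day 3 and 8.60 and 9.28 on day 4. They were then 8.49 and 9.0 on day 5, 8.43 and 8.65 on day 6, 7.50 and 8.78 on day 8, 9.10 on day 10 and 9.45 on day 12. GFP cells had 7.25 and 7.94 on day 1, 6.89 and 7.88 on day 3, 6.51 and 7.26 on day 5, 6.17 and 6.68 on day 8 and 6.69 on day 12. The 4F arrays were thus above the GFP arrays of the same day on each of days 1, 3, 5, 8 and 12, and the 4F mean was at its highest among replicated days on day 3. The difference was 0.78 ± 0.45 on day 1 (adjusted p = 0.55), 1.87 ± 0.45 on day 3 (adjusted p = 0.013), 1.86 on day 5 (adjusted p = 0.0071) and 1.71 on day 8 (adjusted p = 0.0089). In the replicate 1 set Perp was the lower of the pair in 6 of 7 4F groups and in both the uninfected and the day 8 GFP pair, and with the set as a term its rise over uninfected cells was called on day 1 (1.37, adjusted p = 0.0072, against 0.27 without the term). The day 3 call was lost without the 4F replicate 2 array (1.47, adjusted p = 0.12) or the GFP replicate 1 array (1.37, adjusted p = 0.17).

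Dsp encodes desmoplakin, the linker between the desmosome plaque and intermediate filaments. Uninfected cells had 6.21 and 6.15, and 4F cells 6.42 and 6.33 on day 1, 6.97 and 6.87 on day 2, 7.84 and 7.34 on day 3 and 7.77 and 7.15 on day 4. Later 4F arrays had 7.64 and 7.37 (day 5), 7.80 and 7.44 (day 6), 8.27 and 7.48 (day 8), 8.33 (day 10) and 8.54 (day 12). GFP cells had 6.04 and 6.13 on day 1, 5.62 and 5.85 on day 3, 5.61 on both arrays of day 5, 5.87 and 5.80 on day 8 and 5.69 on day 12. Dsp thus stepped up between days 1 and 3 in the 4F arm, and no 4F array overlapped a GFP array. The difference was 0.28 on day 1 (adjusted p = 0.75), 1.85 ± 0.23 on day 3 (adjusted p = 1.3e-04), 1.90 on day 5 (adjusted p = 5.0e-05) and 2.04 ± 0.23 on day 8 (adjusted p = 1.2e-05). It grew by 1.76 ± 0.33 between days 1 and 8 (adjusted p = 0.004), a change of difference for which 8.49% of all genes passed.

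Spint2 lay between the early and the late genes. It encodes a membrane-bound inhibitor of surface serine proteases such as matriptase and prostasin, and is no junction component itself. Uninfected cells had 6.60 and 6.74, and 4F cells 6.62 and 6.38 on day 1, 6.73 and 6.88 on day 2, 7.11 and 7.21 on day 3 and 7.24 and 7.33 on day 4. It then had 7.35 and 7.68 on day 5, 7.71 and 8.08 on day 6, 7.92 and 9.21 on day 8, 10.07 on day 10 and 10.31 on day 12. GFP cells had 7.03 and 6.46 on day 1, 6.99 and 6.45 on day 3, 6.31 and 6.39 on day 5, 6.59 and 6.33 on day 8 and 6.41 on day 12. The 4F mean was higher on each sampled day than on the one before it from day 2 to day 12. Spint2 was first called against GFP on day 5, by 1.17 ± 0.31 (adjusted p = 0.013), when 21.4% of all genes passed, and differed by 2.10 ± 0.31 on day 8 (adjusted p = 1.0e-04). The 4F minus GFP difference grew by 2.35 ± 0.44 between days 1 and 8 (adjusted p = 0.0036), and Dsp and Spint2 were the 2 of the 9 genes called for such a change. The day 5 call was lost without 4F replicate 2 (1.00, adjusted p = 0.094), GFP replicate 1 (1.13, adjusted p = 0.07) or GFP replicate 2 (1.21, adjusted p = 0.055).

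The claudins and Ocln were late. Cldn4, a claudin of simple epithelia, had 6.17 and 5.82 in uninfected cells and between 5.76 and 6.35 on the 4F arrays of days 1 to 5. It then had 5.98 and 6.92 on day 6, 6.66 and 8.80 on day 8, 8.89 on day 10 and 9.70 on day 12. All GFP arrays lay between 5.91 and 6.23, and both 4F arrays of day 8 and those of days 10 and 12 were above them. The day 8 difference was 1.74 ± 0.46 (adjusted p = 0.0095), in a comparison in which 27.6% of all genes passed, 14.5% being higher and 13% lower. Without 4F replicate 2 it was 0.67 (adjusted p = 0.12).

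Cldn6, a claudin of embryonic epithelia and pluripotent cells, had 5.66 and 5.64 in uninfected cells, and between 5.40 and 5.74 on the 4F arrays of days 1 to 6. On day 8 the 4F replicate 1 array had 5.70 and the replicate 2 array 7.41, and days 10 and 12 had 8.59 and 8.89. GFP arrays had 5.30 to 5.79, so that replicate 1 of 4F day 8 still lay within their range and replicate 2 well above it. The difference of 0.97 ± 0.34 was called (adjusted p = 0.047), but it was 0.13 within the replicate 1 set and 1.82 within the replicate 2 set. Without 4F day 8 replicate 2 it was 0.12 (adjusted p = 0.69).

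Cldn7 had 6.03 and 5.84 in uninfected cells, 5.79 to 6.10 on the 4F arrays up to day 6, and 5.79 and 6.44 on day 8, 6.95 on day 10 and 7.22 on day 12. GFP arrays had 5.67 to 6.13, so the 2 latest 4F arrays and the day 8 replicate 2 array lay above them. Cldn7 was the 1 gene of the 9 not called on day 8 (0.16 ± 0.16, adjusted p = 0.54). Without the 4F replicate 1 array it was called, and without the 4F replicate 2 array the sign turned (-0.16).

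Cldn3 and Ocln had the smallest 4F rises over uninfected cells on day 12, while on day 8 that of Cldn7 was smaller than both. Cldn3, which with Cldn4 serves as a receptor of a bacterial toxin in gut epithelium, had 6.95 and 6.65 in uninfected cells, 6.54 to 7.31 in 4F cells up to day 6, and then 7.62 and 7.45 on day 8, 7.78 on day 10 and 7.69 on day 12. GFP arrays had 6.47 to 6.95, below all 4F arrays of day 5 and later, of which the lowest had 6.96 on day 6. The differences were 0.51 on day 5 (adjusted p = 0.055, and 0.006 with the set as a term) and 0.61 ± 0.18 on day 8 (adjusted p = 0.017). Ocln, the gene of occludin, had 4.85 and 4.74 in uninfected cells, 4.72 to 4.94 in 4F cells up to day 6, 5.01 and 5.12 on day 8, 5.38 on day 10 and 5.46 on day 12. GFP arrays had 4.74 to 4.87, below the 4F arrays of day 8 and later. The day 8 difference was 0.24 ± 0.08 (adjusted p = 0.03), a 1.18-fold difference in a signal near the low end of the arrays.

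**Figure D2:**
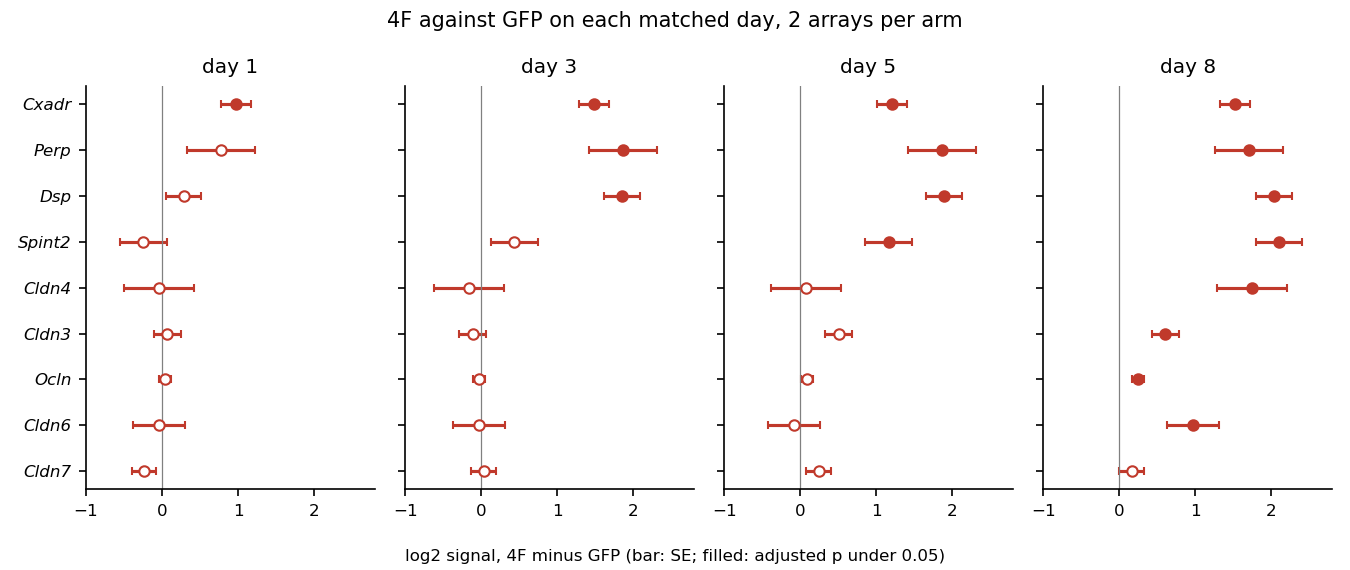
Log2 signal of 4F minus GFP cells (horizontal axis) for each gene on days 1, 3, 5 and 8, with 2 arrays per arm. Bars are standard errors from the fit over all arrays, and filled points have an adjusted p under 0.05. The number of filled points is 1 on day 1, 3 on day 3, 4 on day 5 and 8 on day 8.

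Counted together, 1, 3, 4 and 8 of the 9 genes were higher in 4F than in GFP cells on days 1, 3, 5 and 8, and none was lower. The shares of all genes that were higher were 1.42%, 6.28%, 10.5% and 14.5%. The median difference of the 9 genes was 0.04, 0.03, 0.51 and 1.52 on these days, beside -0.02, -0.03, -0.01 and -0.03 for all genes. Since the 9 genes were chosen with earlier results of these data known, their excess over all genes is in part set by that choice. It gives no separate support. The day 8 count rests in part on single arrays. It was 4 without 4F replicate 2 (Cldn3, Cxadr, Dsp and Spint2) and 4 without GFP replicate 1 (Cldn4, Cxadr, Dsp and Spint2). It was 5 without GFP replicate 2, and 8 without 4F replicate 1, where Cldn7 took the place of Cldn3. Cxadr, Dsp and Spint2 were called in all 4 of these fits.

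The 2 arrays of 4F day 8 stood apart for several of the genes, early and late. Replicate 2 exceeded replicate 1 by 2.14 for Cldn4, 1.71 for Cldn6, 1.29 for Spint2 and 1.28 for Perp. It exceeded replicate 1 by 0.65 for Cldn7, 0.55 for Cxadr and 0.11 for Ocln. Dsp was lower in replicate 2 by 0.79 on the log2 scale and Cldn3 by 0.17. The mean of 10 pluripotent cell markers was 8.11 on the replicate 2 array and 6.93 on the replicate 1 array, and that of 9 simple epithelium markers was 7.70 on the replicate 2 array and 6.35 on the replicate 1 array. The fibroblast marker mean was close on both, at 9.43 and 9.60. The part of these markers, or of the amount of labelled RNA, in the difference between the arrays was not tested. Within the replicate 1 set the 4F minus GFP difference on day 8 was 0.67 for Cldn4, 1.33 for Spint2, 1.25 for Cxadr, 2.40 for Dsp and 1.32 for Perp, and within the replicate 2 set it was 2.81, 2.88, 1.80, 1.68 and 2.10 for the same genes.

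The 4F course was also read from its uninfected start. Against uninfected cells, 0.838% of all genes passed on day 1, 9.35% on day 2, 8.53% on day 3, 10.1% on day 4, 13.6% on day 5, 16.1% on day 6 and 15.9% on day 8. None of the 9 genes was called by limma on day 1, where Cxadr and Perp had an unadjusted p under 0.05. Cxadr (1.35, adjusted p = 4.4e-04) and Perp (2.10, adjusted p = 0.0071) were called higher on day 2, Dsp joined them from day 3, and Spint2 on day 6 (1.22, adjusted p = 0.012). On day 8 the called genes were Cldn3 (0.74), Cldn4 (1.73), Ocln (0.27), Cxadr (1.34), Dsp (1.69) and Spint2 (1.89), while Perp (1.14, adjusted p = 0.11), Cldn6 (0.90, adjusted p = 0.095) and Cldn7 (0.18, adjusted p = 0.59) were not. With the set as a term Perp was called on day 8 (adjusted p = 0.0021), and Dsp was called on day 2 already (0.74, adjusted p = 0.019, against 0.063 without the term). Of 63 pairs of gene and day, 21 were called, all of them higher. In GFP cells none of the 9 genes was called against uninfected cells on any day, where 0.0903%, 1.05%, 10.6% and 20.1% of all genes passed on days 1, 3, 5 and 8. Of these 36 pairs, 1 had an unadjusted p under 0.05, Dsp on day 5. These comparisons share the 2 uninfected arrays.

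**Figure D3:**
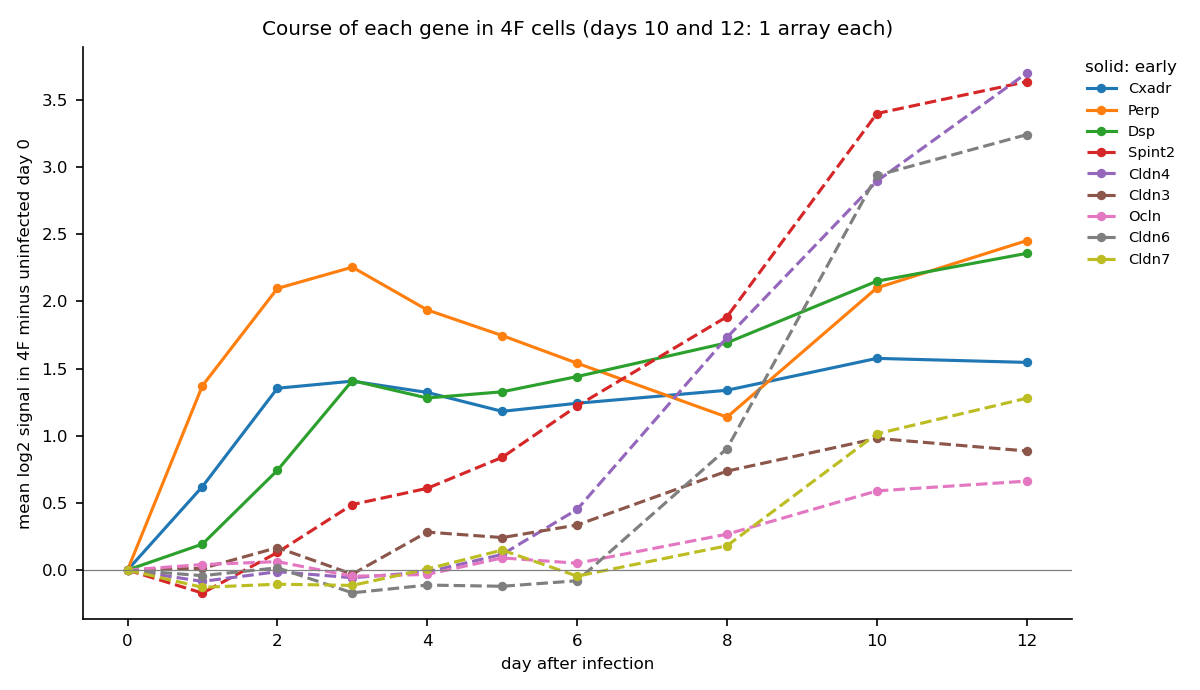
Mean log2 signal of each gene in 4F cells minus its mean in uninfected cells (vertical axis) against day after infection (horizontal axis), with 2 arrays per point up to day 8 and 1 array on days 10 and 12. Solid lines are Cxadr, Perp and Dsp, which had made 105%, 198% and 83.4% of their day 8 rise by day 3, and dashed lines are the other genes, of which Spint2 had made 25.8%.

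Measured against its own day 8 rise, Perp was past 50% on day 1, Cxadr on day 2, Dsp on day 3 and Spint2 on day 6, and Cldn3, Cldn4, Cldn6 and Ocln on day 8. Cldn7 rose too little by day 8 to be placed. The day 8 rise of Perp (1.14) was the lowest of its 4F days, which makes its shares large. On day 1 Perp stood 1.37 above uninfected cells in 4F and 0.60 in GFP cells. Its 4F minus GFP difference was 0.78 on day 1 and 1.71 on day 8, so the place of Perp before Cxadr depends on the measure. On day 12 the 4F array exceeded the uninfected mean by 3.70 for Cldn4, 3.64 for Spint2, 3.24 for Cldn6, 2.45 for Perp, 2.36 for Dsp, 1.55 for Cxadr, 1.28 for Cldn7, 0.89 for Cldn3 and 0.66 for Ocln. These last values come from a single array in the set without replicate number and were not tested.

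The 4F arrays of day 8 were also set against those of day 3, where 2.85% of all genes passed. The genes were called early or late from these same arrays, so this comparison gives the size of the later step and no separate support for that order. Cldn3 (0.77, adjusted p = 0.032), Ocln (0.31, adjusted p = 0.048) and Spint2 (1.40, adjusted p = 0.026) were higher on day 8. Cxadr differed by -0.07 (adjusted p = 0.94) and Dsp by 0.28 (adjusted p = 0.67), and neither passed. Cldn4 had a difference of 1.79 (adjusted p = 0.052) and Cldn6 of 1.07 (adjusted p = 0.12). Perp had -1.12 (adjusted p = 0.23). With the set as a term 5 genes were called, Cldn4 being higher (adjusted p = 0.024) and Perp lower (adjusted p = 0.01). The calls depended on the arrays. None of the 9 genes was called without 4F day 3 replicate 2 or without 4F day 8 replicate 2, Cldn3 alone without 4F day 3 replicate 1, and 4 (Cldn4, Cldn6, Cldn7 and Spint2) without 4F day 8 replicate 1.

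The 3F arm asked what these genes did without c-Myc. With 1 array per day and no replicates, it was compared over days 3, 5, 8 and 12 in a model of day and arm, in which its days stand in for replicates. Cxadr, Perp, Dsp and Spint2 were higher in 3F than in GFP cells, a comparison in which 18.3% of all genes passed and 9.47% were higher. Cxadr had 8.26, 8.50, 8.69 and 8.64 in 3F cells on the 4 days, and the 3F minus GFP difference was 1.90 ± 0.13 (adjusted p = 2.8e-07). Perp had 9.87, 9.94, 9.44 and 9.09 in 3F cells, and the difference of 2.72 ± 0.30 (adjusted p = 2.5e-05), or 6.57-fold, was the largest of the 9 in this fit. With the set as a term this contrast rests on day 12, where each arm had 1 array. The difference for Perp was then 1.99, close to 1.89 for Cxadr. Perp was highest on day 5 and Cxadr on day 8, and all their 3F values lay above all GFP values. Dsp had 6.95, 7.18, 7.10 and 7.65 in 3F cells, a difference from GFP of 1.45 ± 0.17 (adjusted p = 3.9e-05).

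In the 3F arm the other genes, like Dsp, had their highest signal on day 12. Spint2 had 7.08, 7.25, 8.36 and 9.43 in 3F cells (1.38 ± 0.41 over GFP, adjusted p = 0.029, and 0.18 with the set as a term). Cldn4 had 5.95, 6.07, 7.24 and 9.0, and the mean difference over days of 0.84 did not pass (adjusted p = 0.31). Cldn6 had 5.64, 5.52, 5.58 and 7.33 in 3F cells, and on day 8 this 3F value lay beside 5.70 and 7.41 in 4F and 5.57 and 5.59 in GFP cells. Cldn7 had 6.05, 5.99, 6.04 and 6.46, Cldn3 had 6.86, 6.63, 7.22 and 7.24, and Ocln had 4.88, 4.95, 5.07 and 5.24 in 3F cells. For these 3 genes the 3F array of day 12 lay above all GFP arrays.

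Both Cxadr and Dsp differed between 4F and 3F, in opposite directions. Cxadr was lower in 4F than in 3F cells by 0.48 ± 0.13 on the log2 scale (difference -0.48, adjusted p = 0.027), and Dsp was higher by 0.61 ± 0.17 (adjusted p = 0.034). Of all genes 9.63% passed, 3.87% higher and 5.77% lower. Perp had a difference of -0.77 ± 0.30 (adjusted p = 0.13). The 3F arrays all belong to the set without replicate number, so with the set as a term the contrast rests on day 12 and limma called none of the 9 genes (Cxadr -0.47, unadjusted p = 0.1, and Dsp 0.49, unadjusted p = 0.16). The single day 12 arrays of that set had 8.23 in 4F against 8.64 in 3F for Cxadr, 8.54 against 7.65 for Dsp and 9.45 against 9.09 for Perp, the last with the sign turned. Both calls were also lost without day 5, without day 8 and without the replicate 1 arrays. Without day 3 Dsp was lost and Cldn3 was called, and without day 12 Perp was called as well.

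**Figure D4:**
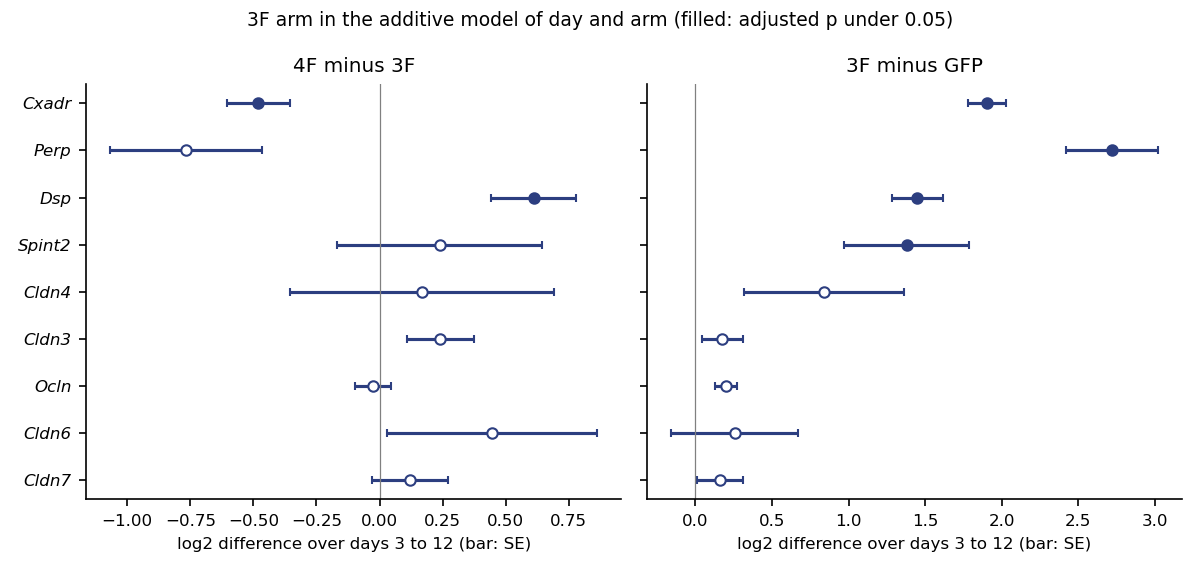
Log2 difference (horizontal axis) of 4F minus 3F (left) and 3F minus GFP (right) for each gene, averaged over days 3, 5, 8 and 12 in a model of day and arm with 7, 4 and 7 arrays of 4F, 3F and GFP. Bars are standard errors, and filled points have an adjusted p under 0.05. Perp is farthest right in 3F minus GFP, at 2.72, and Cxadr and Dsp are filled on opposite sides of 0 in 4F minus 3F.

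Other genes of the same structures were read from lists. Of 26 further tight junction membrane genes, 2 were higher and 3 lower in 4F than in GFP cells on day 8, with a median difference of -0.03, beside -0.03 for all genes. The called genes included the adhesion molecules Jam2 (1.65, adjusted p = 0.0027) and Jam3 (-0.44, adjusted p = 0.0068), the claudin of myelin and testis Cldn11 (0.93, adjusted p = 0.011), and Clmp, a relative of Cxadr. Clmp averaged 6.99 in 4F and 9.62 in GFP cells (-2.63 ± 0.26, adjusted p = 2.8e-06), opposite in direction to Cxadr. Of 20 measured plaque and polarity genes, 7 were higher and 3 lower (median 0.22), beside 14.5% of all genes higher and 13% lower. Against uninfected cells, 2 of these 20 were higher and 3 lower in 4F cells of day 8 (median 0.08), when 15.9% of all genes passed. In GFP cells of day 8, 0 were higher and 2 lower against uninfected cells, when 20.1% of all genes passed. Tjp1, the scaffold ZO-1, was higher in 4F than in GFP cells (0.87, adjusted p = 0.0035), as was Ybx3, a factor that binds it (1.01, adjusted p = 4.5e-04). Tjp1 averaged 9.22 in 4F, 8.34 in GFP and 8.46 in uninfected cells. Ybx3 averaged 10.37 in 4F, 9.36 in GFP and 10.42 in uninfected cells, so it was not above its uninfected level in 4F cells. The scaffold Mpdz (-1.22, adjusted p = 1.2e-05) and the cingulin relative Cgnl1 (-1.20, adjusted p = 0.0017) were lower.

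Among 13 measured desmosome and plakin genes, 3 were higher and none lower on day 8 (median 0.01), beside 14.5% of all genes higher. They were the plakophilin genes Pkp1 (1.48, adjusted p = 1.4e-05) and Pkp4 (1.21, adjusted p = 2.9e-04) and Jup, the gene of plakoglobin, which links desmosomal cadherins to desmoplakin (0.78, adjusted p = 0.0051). Against uninfected cells, 2 of the 13 were higher in 4F cells of day 8, when 15.9% of all genes passed. Jup averaged 8.55 in 4F, 7.77 in GFP and 8.31 in uninfected cells. No desmosomal cadherin gene of the list was called on day 8, but Dsc2, the gene of desmocollin 2, was higher in 4F than in GFP cells on day 3 (0.82, adjusted p = 0.011) and in 3F than in GFP cells (0.88, adjusted p = 0.0066). Among 15 measured genes of surface proteases and their regulators, 3 were higher and none lower (median 0.04). These were Epcam, whose product the protease matriptase cleaves (8.17 in 4F and 5.41 in GFP cells, 2.76 ± 0.72, adjusted p = 0.0085), St14, which encodes matriptase (1.00, adjusted p = 0.0039), and Prss8, which encodes prostasin (0.68, adjusted p = 0.018). The 3 of 15 stand beside 14.5% of all genes higher. The other genes of the list, such as Hpn, Hgfac and Tmprss13, were not called. Among these, Spint1, the paralog of Spint2, came near the threshold (0.66, adjusted p = 0.054). On days 1, 3 and 5 none of the 15 was called.

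Regulators of epithelial transcription and splicing and repressors of epithelial genes were counted in the same way, beside 14.5% of all genes higher and 13% lower on day 8. Of 14 measured epithelial regulators, none was called on days 1 and 3, and 7 were higher on day 5, beside 10.5% of all genes. On day 8, 7 were higher, 7 not called and none lower (median 0.32). Those with the greatest differences were the ETS factor Elf3 (1.22, adjusted p = 6.6e-05), Tfap2c (1.04, adjusted p = 2.0e-04), the splicing regulator Esrp1 (0.92, adjusted p = 0.016) and the grainyhead factor Grhl3 (0.76, adjusted p = 7.9e-04). Of 12 repressor genes, 1, 5 and 6 were lower on days 1, 3 and 5, when 1.81%, 11.9% and 21.4% of all genes passed in either direction. On day 8, 8 were lower and 1 higher (median -0.93). Snai2 averaged 6.38 in 4F and 8.20 in GFP cells (-1.82 ± 0.38, adjusted p = 0.0019), and Snai1 (-1.82, adjusted p = 1.3e-05), Twist2 (-1.82, adjusted p = 1.2e-06) and Prrx1 (-1.64, adjusted p = 7.2e-06) were lower as well. In 3F against GFP, 6 of the 12 repressors were lower and 4 of the 14 epithelial regulators higher. In that comparison 18.3% of all genes passed and 9.47% were higher.

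Markers of some cell types also differed between 4F and GFP cells. On day 8, 11 of 12 fibroblast markers were lower in 4F than in GFP cells, beside 13% of all genes. Of 10 pluripotent cell markers 8 were higher, and of 9 simple epithelium markers 6, beside 14.5% of all genes. No marker of these lists was called the other way. Against uninfected cells, 7 fibroblast markers were lower and 1 higher in 4F cells of day 8, while 8 were higher in GFP cells of day 8. Of all genes, 15.9% passed in the 4F comparison and 20.1% in the GFP comparison, in either direction. Of the simple epithelium markers, 4 were higher and 1 lower in 4F cells and 2 were lower in GFP cells against uninfected cells. The differences between 4F and GFP thus hold changes of both arms. The fibroblast marker mean of an array lay between 9.40 and 10.5 in 4F, had a median of 10.7 in 3F, and lay between 10.6 and 12.3 in GFP cells. That of simple epithelium lay between 5.94 and 8.75 in 4F and between 6.19 and 8.16 in 3F, against 5.79 to 6.23 in GFP cells and 6.32 and 6.38 in uninfected cells. None of 10 keratinocyte markers was called on day 8. Krt14 was higher in 4F than in GFP cells on day 3 (0.72, adjusted p = 0.011) and Trp63 in 3F than in GFP cells (0.31, adjusted p = 0.019). The mean of the 10 lay between 5.48 and 5.95 in 4F and between 5.47 and 5.69 in GFP. Trophectoderm had 1 of 8 markers higher and 1 lower in 4F than in GFP cells on day 8, endothelium 1 of 8 higher and macrophage 2 of 7 lower. The trophectoderm and endothelium counts lie near the shares of all genes, 14.5% higher and 13% lower. The part of these markers in the junction gene differences was not tested.

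The 9 genes also varied in how closely they tracked each other and other genes. Over the 19 group means, which share arrays and the course of the same arms, the Pearson correlation between 2 of the 9 genes lay between 0.29 and 0.96 (median 0.78 over 36 pairs). Among the 2126 genes with a standard deviation of at least 0.5 over these means, the genes most like Cldn4 were Dppa5a, a gene of pluripotent cells (r = 0.99), Spint1, the paralog of Spint2 (0.98), and Cdh1, the gene of E-cadherin (0.98). Those most like Spint2 were Phc1, Epcam and Cdh1 (all 0.98), and those most like Cldn6 were Tdrd12, Klk7 and Prss8 (0.98 to 0.99). The early genes had other neighbours. Cxadr was most like Sostdc1, Ddc and Atp6v0e2 (all 0.97), Dsp most like Podxl, Bex1 and Pipox (0.96 to 0.98) and Perp most like Mllt3, Dusp14 and Rb1 (0.95 to 0.97). Cldn7 was most like Klk7, Arg1 and Cldn6 (0.96 to 0.97), Ocln like Oas3, Cldn4 and Dpp6 (0.96 to 0.97) and Cldn3 like Hook1, Ttyh1 and Aim2 (0.92 to 0.93).

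In the RefSeq gene order Cldn3 and Cldn4 are next to each other, and both were higher on day 8, by 0.61 and 1.74. Of the 13 other measured genes that flank a member, 4 were higher (Abhd11, Mettl27, Elp5 and Snrnp48), Usp25 beside Cxadr was lower and 8 were not called, beside 27.6% of all genes called. Cldn9, which flanks Cldn6, averaged 6.17 in 4F and 5.78 in GFP cells (0.39, adjusted p = 0.053), and Marveld2, the tricellulin gene beside Ocln, averaged 5.56 in 4F and 5.32 in GFP cells (0.24, adjusted p = 0.079).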

How the data were processed

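Total RNA of 31 MEF cultures was labelled with biotin and hybridized to Affymetrix mouse arrays, per the labels' protocols. The deposited table holds log2 signals by the authors, 1 row per probe set; the method of normalization and the tools are not given in the sources used here, and the values were used as deposited. A single gene symbol was given for 21789 of 28853 rows (21698 of them matched to RefSeq by Entrez ID), more than 1 symbol for 1621, and none for 5443. The row of highest mean was kept per gene, which left 19938 genes. The number of arrays limits the precision.

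Groups were compared with limma 3.58.1 (lmFit and eBayes) in R 4.3.3, with 1 mean per group over 31 arrays in 19 groups, of which 12 have 2 arrays, and with an additive model of day and arm on 18 arrays for 3F. The p-values were adjusted by Benjamini-Hochberg over all genes and called under 0.05. In the fit with 1 mean per group, the p-values measure the spread between arrays whose titles call them biological replicates. In the additive model that spread also holds differences between arms that change from day to day. Single arrays, and so all of 3F, have no replicate check. For 3F the source field counts 4 factors yet lists only 3, and titles and characteristics were followed.

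The RNA input was 120 ng for replicate 1 and 300 ng elsewhere, per the labels. No batch is named, but this shared input was taken to pair arrays by number, and the arrays without a number formed a set of their own. Replicate differences correlated across genes at r from 0.081 to 0.686 (median 0.320) over 66 pairs of groups, 65 of them above 0.1. Alternatives were this set as a replicate block, leaving out the lowest 25% of genes by mean signal, a further quantile normalization, a prior variance by mean signal, all rows of 1 symbol, only the arrays compared, and each array or day left out. The scripts were tested on simulated data. Likeness was ranked by Pearson r over 19 group means, 3 genes per member, and up to 4 called genes per list were named by size on day 8. The members, gene lists and rules were chosen with earlier results of these data known.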

Additional observations from a re-analysis of the deposited data

Results flagged for a closer look

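The 4F minus GFP difference of 2 genes was not the same on day 8 as on day 1, by limma's test of that change itself. For Dsp the difference was 2.04 on day 8 and 0.28 on day 1, a change of 1.76 ± 0.33 (adjusted p = 0.004). For Spint2 it was 2.10 on day 8 and -0.24 on day 1, a change of 2.35 ± 0.44 (adjusted p = 0.0036). Both were called in each of the 8 fits that left out 1 of the arrays involved, and Spint2 was not called when only these arrays were fitted. Without 4F day 8 replicate 1, Cldn4, Cldn6 and Cldn7 were called as well.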

How the results depend on the processing

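Each count of called genes was repeated under the alternatives. With the set of arrays as a replicate block, 5 of the 9 genes were called in 4F day 8 against day 3, in place of 3, and 0 in 4F against 3F, in place of 2. All-gene counts moved with it, to 924 from 361 for 4F against GFP on day 1, to 3749 from 2378 on day 3, to 1385 from 568 for day 8 against day 3, to 2820 from 1693 for the change from day 1 to day 8, and to 14 from 1921 for 4F against 3F. Pairs of gene and day called against uninfected cells numbered 24, in place of 21, and the block called Perp on days 1 and 8 (adjusted p = 0.0072 and 0.0021) and Dsp on day 2 (0.019). Fitted on only the arrays compared, with few residual degrees of freedom, the counts of the 9 genes were 0 on day 1, 3 on day 8, 0 for day 8 against day 3, 1 for the change from day 1 to day 8, and 1 pair (Dsp on day 5) for GFP against uninfected, and all-gene counts were 0, 2382, 0 and 816, with 760 on day 3. Leaving out 1 array or day at a time, the counts ranged from 0 to 0 on day 1, 2 to 3 on day 3, 2 to 4 on day 5, 4 to 8 on day 8, 14 to 25 pairs for 4F against uninfected, 0 to 0 for GFP against uninfected, 0 to 4 for day 8 against day 3, 2 to 5 for the change from day 1 to day 8, 0 to 3 for 4F against 3F and 3 to 4 for 3F against GFP. Without 4F day 8 replicate 2 or replicate 1, Cldn7 had -0.16 and 0.49 against GFP and -0.029 and 0.62 against day 3, Cxadr had -0.34 and 0.21 against day 3, and Dsp had 0.68 and -0.11 against day 3. Quantile normalization gave 0.0007 for Cxadr there. None of these differences was called in the fit reported. The causes were not tested. Leaving out the dimmest genes removed Ocln from the test. Of 699 repeats for single genes the direction and call held in 585, the call was lost in 85 and gained in 24.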
